A study of Mus musculus with 6 samples.

Results

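Homeostatic and membrane-bound chemokines were followed through 9 genes, taken by gene name. The set of names was drawn up with earlier results of these data known. Every non-control probe was taken whose name on the array was Cx3cl1, Cxcl16, Cxcl14, Cxcl13 or Cxcl12 (ligands) or Cxcr7, Cxcr4, Cxcr6 or Ccr7 (receptors). This gave 11 of 55681 probes and 9 of the 34797 gene names on the array. RNA came from the aortic arteries of C57BL/6 fetuses, with 3 arrays from Nod1 -/- fetuses and 3 arrays from Nod1 +/- fetuses. NOD1 detects pieces of bacterial cell wall inside the cell and switches on NF-kB. All 6 samples were littermate fetuses of Nod1 -/- dams crossed with Nod1 +/- sires. All were exposed through the dam, which received 500 µg of FK565, a synthetic NOD1 ligand, under the skin at E18.5, shortly before birth. Vessels were taken 6 h later. The dams thus lacked Nod1 in both groups, Nod1 +/- fetuses carried a working allele, and no array came from a dam without FK565. The comparison therefore shows the difference between genotypes under the ligand, and the response to the ligand itself cannot be told apart from a standing genotype difference. The labels do not say if RNA of several fetuses was pooled on an array, and p-values here measure sample-to-sample spread, which may in part be technical.

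Chemokines are small secreted proteins that guide leukocytes through G protein-coupled receptors. Most inflammatory chemokines are released into tissue fluid, but CX3CL1 (fractalkine) and CXCL16 are made as membrane proteins with the chemokine head on a mucin stalk, where they can hold CX3CR1-bearing or CXCR6-bearing cells directly until proteases cut them free. CXCL12 and CXCL13 are called homeostatic because tissues make them without inflammation: CXCL12, through CXCR4 and the scavenger CXCR7, guides vessel growth and stem cells, and CXCL13 gathers B cells through CXCR5. CXCL14 is a chemokine of epithelia and stroma, and CCR7 brings dendritic cells and T cells to the ligands CCL19 and CCL21. In arteries, endothelium and smooth muscle are known sources of CX3CL1, CXCL16 and CXCL12.

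Values are log2 signal minus the array's 75th percentile, so a value of 0 is a fairly bright probe, and differences are Nod1 -/- minus Nod1 +/-. Adjusted p-values are limma's, with Benjamini-Hochberg adjustment over 21478 genes and a threshold of 0.05. Probes above background made up 53.7% to 58.3% of all on Nod1 -/- arrays and 48.6% to 54.7% on Nod1 +/- arrays. Markers of the labelled tissue were present: all 9 endothelial and all 7 smooth-muscle genes were above background on all 6 arrays. Some arrays stood apart. Skeletal-muscle markers summed to 25.2 to 43.5 times the 75th percentile on Nod1 -/- arrays and 30.7 to 594.9 on Nod1 +/- arrays, where the highest was replicate 1. Nerve markers summed to 10.3 to 45.1 on Nod1 -/- arrays, highest in replicate 1, and 5.33 to 14.1 on Nod1 +/- arrays. On the slide, row 1 held Nod1 -/- replicates 1 and 2, and row 2 held Nod1 -/- replicate 3 with all Nod1 +/- arrays.

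Of the 5 ligands, 3 were lower and 1 was higher in Nod1 -/- aortas, and none of the 4 receptors passed the test. The membrane-bound chemokines Cx3cl1 and Cxcl16 were 20.1-fold and 6.15-fold lower in Nod1 -/-, Cxcl14 was 8.08-fold lower, and Cxcl13 was 1.77-fold higher. Among all genes tested 18.7% passed the threshold, with 7.66% lower and 11% higher in Nod1 -/-. All 9 members passed the filter on dim probes. The genotypes did not overlap for 5 members, 3 of them lower and 2 higher in Nod1 -/-. Across all genes the genotypes did not overlap for 42.4%, with 16.3% lower and 26.1% higher, so the higher members lay near the background. The members had a median difference of 0.28, against 0.10 over all genes, and the medians of the ligands and receptors were -2.62 and 0.40. Because this is bulk tissue, fewer cells of a type and less RNA per cell cannot be told apart.

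**Figure D1:**
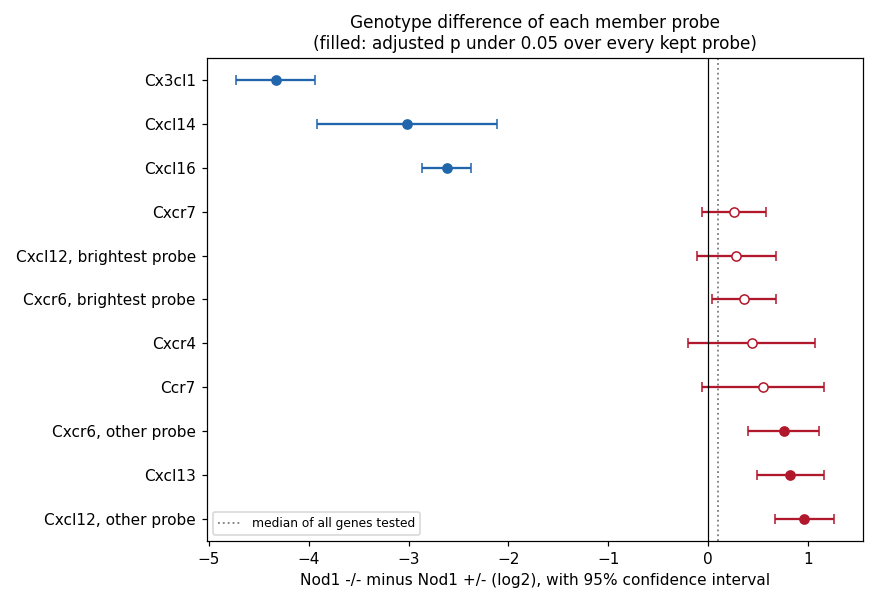
Differences between genotypes for every probe of the 9 chemokine genes, on the x axis as Nod1 -/- minus Nod1 +/- in log2 units with 95% confidence intervals from the fit (n = 3 arrays per genotype). The dotted line is the median of all genes tested, 0.10, and Cx3cl1, Cxcl14 and Cxcl16 lie far to its left. The receptor probes lie nearer to it on its right, the dimmer Cxcr6 probe farthest at 0.76.

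Cx3cl1, the membrane-bound ligand of CX3CR1, was the member that differed most. Its probe lies at chr8:97306185-97306244 of mm9 on the plus strand. Log2 values were -0.50, -0.74 and -0.58 in Nod1 -/- aortas and 3.57, 3.56 and 4.04 in Nod1 +/- aortas. Before scaling, the processed signals were 278, 263.6 and 274.7 in Nod1 -/- aortas, against 4932, 5135 and 6100 in Nod1 +/- aortas. Every Nod1 -/- array was thus far below every Nod1 +/- array, with little spread among the Nod1 -/- arrays. The means were -0.61 ± 0.12 in Nod1 -/- and 3.72 ± 0.27 in Nod1 +/- (SD, n = 3 each). Cx3cl1 fell by 4.33 on the log2 scale (standard error 0.16, 95% confidence interval -4.72 to -3.94; limma adjusted p = 0.000243), and 27 genes of the table, this one included, were at least as much lower. The transcript was still above background on all 3 Nod1 -/- arrays. The summed endothelial markers overlapped between genotypes, at 109.2 to 120.9 in Nod1 -/- and 96.97 to 127.4 in Nod1 +/-, and most of each sum came from Egfl7. Of the 9, 2 passed as higher in Nod1 -/- and 0 as lower. These were Tie1, by 0.60 (limma adjusted p = 0.0335), and Cldn5, by 0.67 (0.0382). Both calls were lost without the first replicates and with a block for slide row. Cdh5 had a difference of -0.30 (0.0766). Smooth-muscle markers also overlapped, at 1063 to 1123 in Nod1 -/- and 1037 to 1105 in Nod1 +/-. The summed markers of arterial endothelium did not overlap, at 46.8 to 53.4 in Nod1 -/- and 29.8 to 36.3 in Nod1 +/-. The arterial markers were not uniform: 4 of 8 passed as higher in Nod1 -/- and 0 as lower, while Sox17 and Dll4 had differences of -0.06 and -0.14. The part of any of these cells in the Cx3cl1 difference was not tested.

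Cxcl16, the membrane-bound ligand of CXCR6 that also takes up oxidised lipoprotein, followed. Its probe lies at chr11:70267780-70267839 of mm9 on the minus strand. Log2 values were -0.75, -0.69 and -0.91 in Nod1 -/- aortas and 1.81, 1.87 and 1.83 in Nod1 +/- aortas. The Nod1 +/- arrays were almost alike, and none of the arrays came near the gap between the genotypes. The means were -0.78 ± 0.11 in Nod1 -/- and 1.84 ± 0.03 in Nod1 +/- (SD, n = 3 each). Cxcl16 fell by 2.62 (standard error 0.10; limma adjusted p = 0.000243, the smallest in the table and shared by 12 genes, Cx3cl1 among them). Both membrane-bound ligands kept their direction and their call under all 21 alternatives run, between -4.46 and -4.03 for Cx3cl1 and between -2.75 and -2.33 for Cxcl16.

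**Figure D2:**
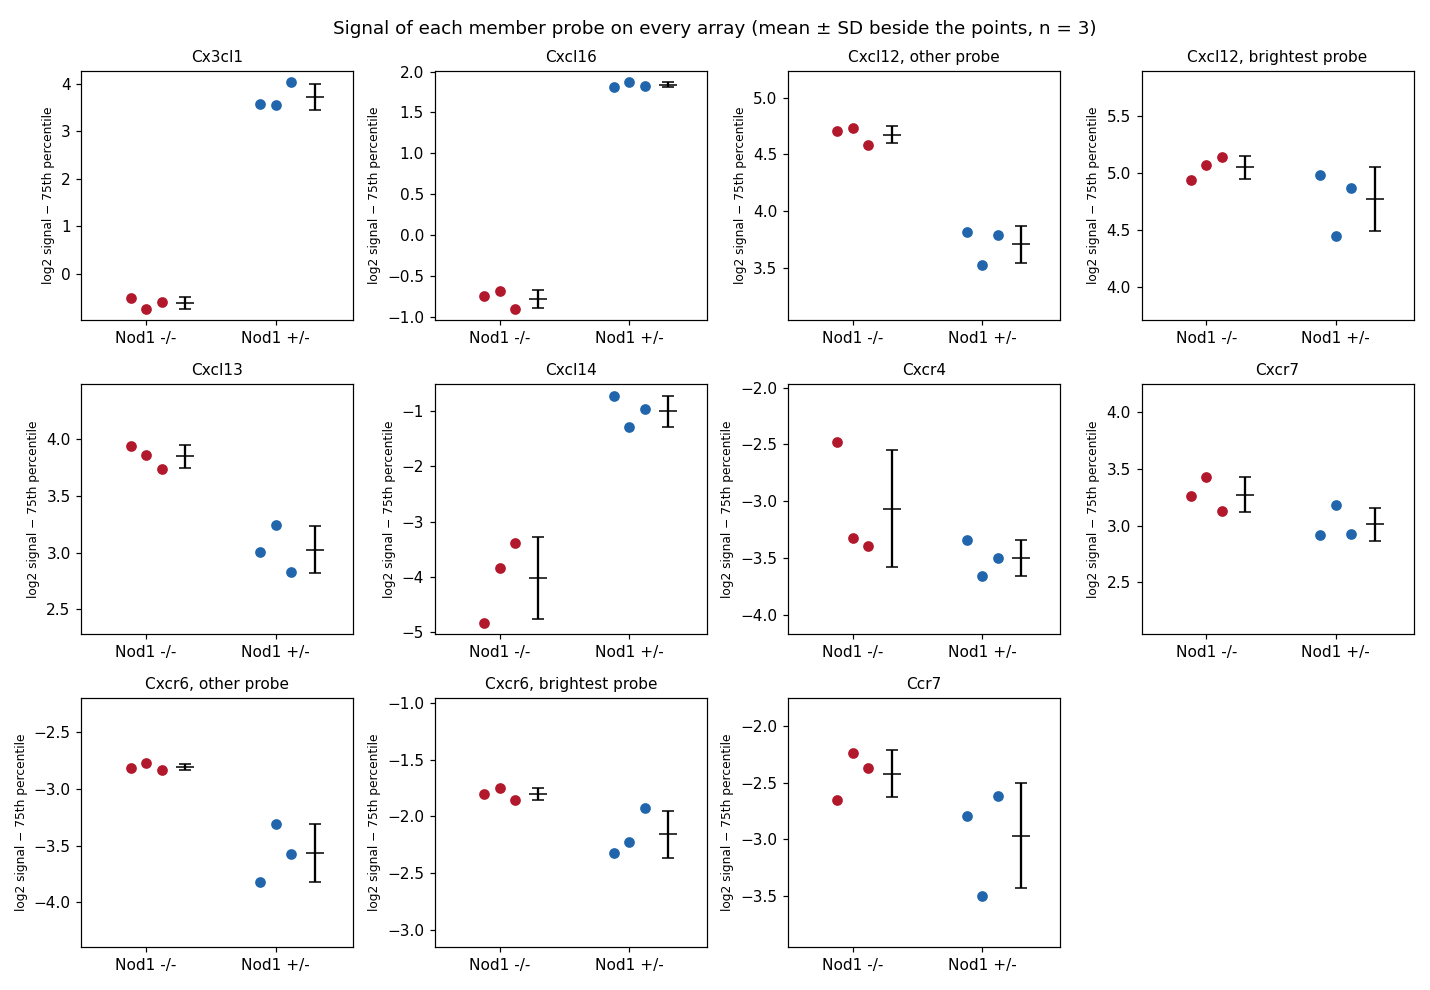
Log2 signal minus the array's 75th percentile (y axis) for each probe of the 9 genes on every array, with Nod1 -/- left of Nod1 +/- and the mean ± SD beside the points (n = 3). Cx3cl1, Cxcl16 and Cxcl14 are separated with Nod1 -/- low, Cxcl13 and the upstream Cxcl12 probe with Nod1 -/- high, and most receptors overlap.

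Cxcl14, a chemokine of epithelial and stromal cells whose receptor is not settled, was also lower in Nod1 -/-, on a dim probe. Its probe lies at chr13:56390078-56390137 of mm9 on the minus strand. Log2 values were -4.82, -3.84 and -3.39 in Nod1 -/- aortas and -0.74, -1.30 and -0.97 in Nod1 +/- aortas. The Nod1 -/- arrays were all lower and spread widely, and the probe was above background on only 2 of those 3 arrays, not on replicate 1. The means were -4.02 ± 0.73 in Nod1 -/- and -1.0 ± 0.28 in Nod1 +/- (SD, n = 3 each). Cxcl14 fell by 3.01 (standard error 0.37, 95% confidence interval -3.92 to -2.11; limma adjusted p = 0.00547). The size depended on how background was removed: with the normexp correction Cxcl14 fell by 1.57 (adjusted p = 0.000858). The difference was -2.38 with a block for slide row (adjusted p = 0.0496). Epithelial markers overlapped between genotypes, at 9.90 to 12.4 in Nod1 -/- and 6.46 to 16.7 in Nod1 +/-, with Epcam and Krt5 above background on no array.

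Cxcl13, the B-cell chemokine, was the member that passed the test as higher in Nod1 -/-. Its probe lies at chr5:96389861-96389920 of mm9 on the plus strand. Log2 values were 3.94, 3.86 and 3.74 in Nod1 -/- aortas and 3.01, 3.25 and 2.83 in Nod1 +/- aortas. The genotypes did not overlap, although the gap was far smaller than for the membrane-bound ligands. The means were 3.85 ± 0.10 in Nod1 -/- and 3.03 ± 0.21 in Nod1 +/- (SD, n = 3 each), a difference of 0.82 (standard error 0.14; limma adjusted p = 0.0126). The call was lost with median scaling (adjusted p = 0.053), with a block for slide row (0.115), and without Nod1 -/- replicate 1 (0.0503), Nod1 -/- replicate 2 (0.056) or both first replicates (0.134). The sum of fibroblast markers moved the same way, at 982.7 to 1043 in Nod1 -/- and 767.6 to 791.4 in Nod1 +/-. The single markers were not uniform: Pdgfra, Col1a1 and Col3a1 had differences of -0.16, -0.02 and 0.04. Of the 8, 4 passed as higher in Nod1 -/- and 0 as lower (0 of 8 higher without both first replicates or with a block for slide row). B-cell markers summed to 2.23 to 4.80 in Nod1 -/- and 1.75 to 1.86 in Nod1 +/-, with 1 of 6 tested higher (0 in both of those settings). The part of either cell type in the Cxcl13 difference was not tested.

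The start regions of these 3 chemokines are shown because their genes differed in opposite directions or sizes. They are the RefSeq promoters of build GRCm38.p6, 250 bases before to 50 bases after the start, 5′ to 3′, with TATAAA in capitals where present.
Cx3cl1, chr8:94771930-94772229, plus strand: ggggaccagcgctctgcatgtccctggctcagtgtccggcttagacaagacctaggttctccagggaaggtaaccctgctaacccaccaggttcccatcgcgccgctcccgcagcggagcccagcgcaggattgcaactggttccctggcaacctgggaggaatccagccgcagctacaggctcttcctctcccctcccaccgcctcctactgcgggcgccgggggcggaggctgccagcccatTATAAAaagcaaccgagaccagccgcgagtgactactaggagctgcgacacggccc
Cxcl13, chr5:95956689-95956988, plus strand: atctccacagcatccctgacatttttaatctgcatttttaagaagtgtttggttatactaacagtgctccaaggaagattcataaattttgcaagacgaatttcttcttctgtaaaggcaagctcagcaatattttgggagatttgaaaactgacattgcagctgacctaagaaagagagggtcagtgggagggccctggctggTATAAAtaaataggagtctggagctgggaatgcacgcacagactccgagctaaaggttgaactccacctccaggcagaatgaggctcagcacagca
Cxcl14, chr13:56296502-56296801, minus strand: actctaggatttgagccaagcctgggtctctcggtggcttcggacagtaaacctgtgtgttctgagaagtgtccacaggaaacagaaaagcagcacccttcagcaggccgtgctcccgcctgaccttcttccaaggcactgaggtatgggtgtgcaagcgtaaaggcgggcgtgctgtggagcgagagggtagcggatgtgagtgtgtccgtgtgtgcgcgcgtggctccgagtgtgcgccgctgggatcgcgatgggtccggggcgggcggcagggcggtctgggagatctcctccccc
The motif TATAAA, searched on both strands (TTTATA on the other), begins 6 bases before the start of Cx3cl1 and 46 bases before that of Cxcl13, and was not found in the Cxcl14 window. Promoters were found for 7 of the 9 members, and 4 of those 7 held the motif on either strand, against 13.6% of the 32851 promoters in the table. The NF-kB consensus motif, also searched on both strands, was in 0 of the 7 windows and in 8.46% of all promoters. A match describes these letters only, and no match says only that they are not in this window.

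Cxcl12, the ligand of CXCR4 and CXCR7 that organises arteries and stem-cell niches, was read by a pair of probes that gave different answers. The downstream probe, annotated to transcript variant 3, lies at chr6:117131227-117131286 of mm9, and the upstream probe, annotated to variant 1, at chr6:117125026-117125085, both on the plus strand and 6201 bases apart. The last 30 bases of each probe are shown, because the probes share no bases and read different stretches of the gene, with the polyadenylation signal AATAAA in capitals where present.
Cxcl12 downstream probe: tgctttcttattcttatttttaatatatga
Cxcl12 upstream probe: tatttacctgaAATAAAatctactagttgt
Of the 11 member probes 2 held AATAAA, against 10.1% of all 55681 probes.

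The downstream Cxcl12 probe, used for the gene because of its higher mean, stood at 4.94, 5.07 and 5.14 in Nod1 -/- aortas and at 4.98, 4.45 and 4.87 in Nod1 +/- aortas. These values overlapped, and the difference of 0.28 (standard error 0.16, 95% confidence interval -0.11 to 0.68) missed the threshold (limma adjusted p = 0.261). It was 0.62 with the mean of both probes (adjusted p = 0.0267), and 0.12 without Nod1 +/- replicate 2 (adjusted p = 0.552). The upstream probe stood at 4.70, 4.73 and 4.59 in Nod1 -/- aortas and at 3.82, 3.52 and 3.79 in Nod1 +/- aortas. Here the genotypes were clearly apart, with Nod1 -/- higher by 0.97 (standard error 0.12; limma adjusted p = 0.00644 over 30166 probes). Of all kept probes 15.9% passed the threshold and 9.12% were higher in Nod1 -/-. The upstream call was lost without the first replicates (adjusted p = 0.0809) and with a block for slide row (0.0675). The sum of fibroblast markers, given above with Cxcl13, moved the same way, though not every marker did. So did the sum of arterial endothelial markers, given above with Cx3cl1. Of those arterial markers 4 of 8 were higher in Nod1 -/-, and 2 of 8 without the first replicates or with a block for slide row. Their part was not tested.

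The gap between the Cxcl12 probes was also taken within each array. The downstream minus the upstream log2 value was 0.24, 0.34 and 0.56 in Nod1 -/- aortas and 1.17, 0.93 and 1.09 in Nod1 +/- aortas. The gap was smaller on every Nod1 -/- array, with means of 0.38 ± 0.16 in Nod1 -/- and 1.06 ± 0.12 in Nod1 +/- (SD, n = 3 each). This difference of -0.68 had an exact two-sided permutation p = 0.1, the smallest that 3 arrays against 3 allow. Leaving out an array at a time gave differences of -0.77 to -0.61, and normexp gave -0.64. The difference was smaller without the first replicates (-0.56) and on slide row 2 alone (-0.50), where replicate 3 is the only Nod1 -/- array. Disagreement between probes is not rare here: of 5990 genes with several kept probes, 994 (16.6%) had a probe that differed from the brightest in its call. The Cxcr6 probes described below share 50 bases, and their within-array gap also differed, by -0.40 (exact two-sided permutation p = 0.1). With normexp that Cxcr6 difference was -0.10.

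**Figure D3:**
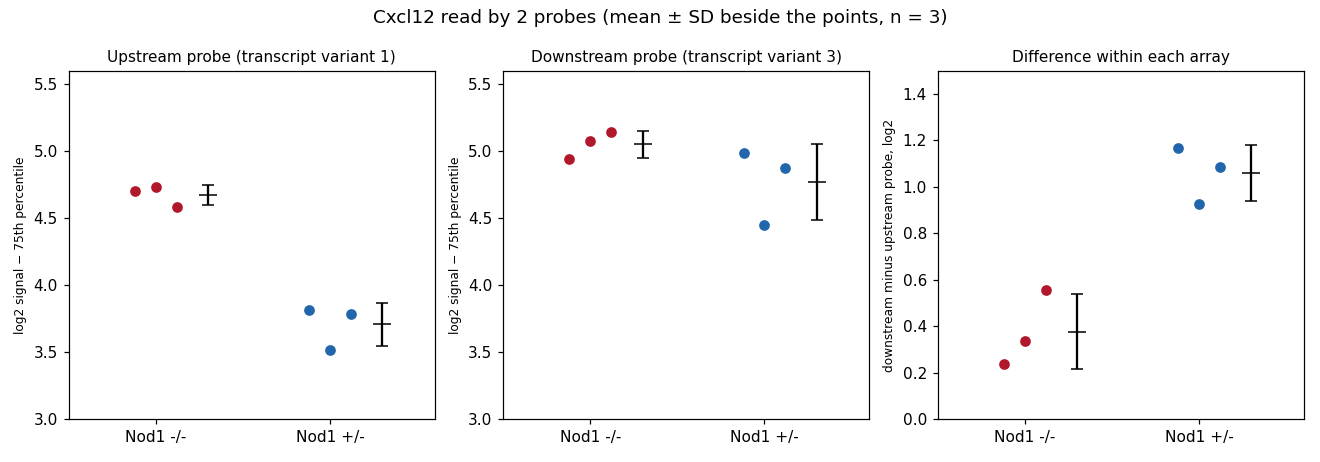
The downstream and upstream Cxcl12 probes (log2 signal minus the 75th percentile, y axis) and the within-array gap between them (log2) on every array, Nod1 -/- left of Nod1 +/-, with mean ± SD (n = 3). The downstream probe overlaps between genotypes, the upstream probe is higher on all Nod1 -/- arrays, and the gap is smaller on all Nod1 -/- arrays.

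None of the 4 receptors passed the test at the gene level. Cxcr7, listed by RefSeq as Ackr3, is the scavenger that binds CXCL12 without G protein signalling, and its probe lies at chr1:92111803-92111862 of mm9 on the plus strand. It stood at 3.27, 3.43 and 3.12 in Nod1 -/- aortas and at 2.92, 3.18 and 2.93 in Nod1 +/- aortas. The ranges overlapped, and the difference of 0.26 had a 95% confidence interval of -0.05 to 0.58 (limma adjusted p = 0.199). Cxcr4, the signalling receptor of CXCL12, has its probe at chr1:130485079-130485138 on the minus strand and stood at -2.48, -3.32 and -3.40 in Nod1 -/- aortas and at -3.34, -3.66 and -3.50 in Nod1 +/- aortas. Nod1 -/- replicate 1, the array with the highest nerve markers, was well above the rest, and the part of those cells was not tested. The Cxcr4 difference was 0.44 (95% interval -0.20 to 1.07; limma adjusted p = 0.279), and it was 0.14 without Nod1 -/- replicate 1.

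Ccr7, the receptor that leads dendritic cells and T cells to CCL19 and CCL21, has its probe at chr11:99005551-99005610 of mm9 on the minus strand. It stood at -2.65, -2.24 and -2.37 in Nod1 -/- aortas and at -2.79, -3.49 and -2.62 in Nod1 +/- aortas, values that overlapped. The difference of 0.55 had a 95% confidence interval of -0.06 to 1.16 (limma adjusted p = 0.173), and it was 0.29 without Nod1 +/- replicate 2. For Cxcr4 and Ccr7, an interval of this width holds both no difference and a 2-fold one. T and NK cell markers summed to 9.39 to 12.3 in Nod1 -/- and 9.08 to 12.9 in Nod1 +/-, with 0 of 6 tested past the threshold and Cd8a, Ncr1, Klrb1c and Klrd1 above background on no array. Dendritic-cell markers summed to 6.85 to 9.52 in Nod1 -/- and 10.9 to 16.3 in Nod1 +/-, with 2 of 9 lower (1 with a block for slide row). These were Fscn1 and Itgax, the latter above background on no Nod1 -/- array. The other 7 did not pass, and H2-Aa, H2-Eb1 and Flt3 had differences of -0.04, 0.06 and 0.37. The part of T, NK and dendritic cells was not tested.

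Cxcr6, the receptor of CXCL16 on T and NK cells, was read by overlapping probes whose starts lie 10 bases apart. They share 50 bases, of which 30 are shown because both values below rest on them.
Cxcr6 shared stretch: acagagcttaagactttaacaaatacaaga
The brighter probe (chr9:123720719-123720778 of mm9, plus strand) stood at -1.80, -1.75 and -1.85 in Nod1 -/- aortas and at -2.32, -2.23 and -1.93 in Nod1 +/- aortas. The genotypes did not overlap, but the difference of 0.36 (standard error 0.13) missed the threshold (limma adjusted p = 0.105). It passed with the mean of both probes (0.0263), with array weights (0.0245) and without Nod1 +/- replicate 3 (0.0376). The dimmer probe (chr9:123720709-123720768) stood at -2.81, -2.78 and -2.83 in Nod1 -/- aortas and at -3.82, -3.31 and -3.57 in Nod1 +/- aortas, where 2 of 3 arrays were above background. Its difference of 0.76 passed (limma adjusted p = 0.0219 over 30166 probes) but was lost in 11 of 18 alternatives, and normexp gave 0.28 (adjusted p = 0.058).

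**Figure D4:**
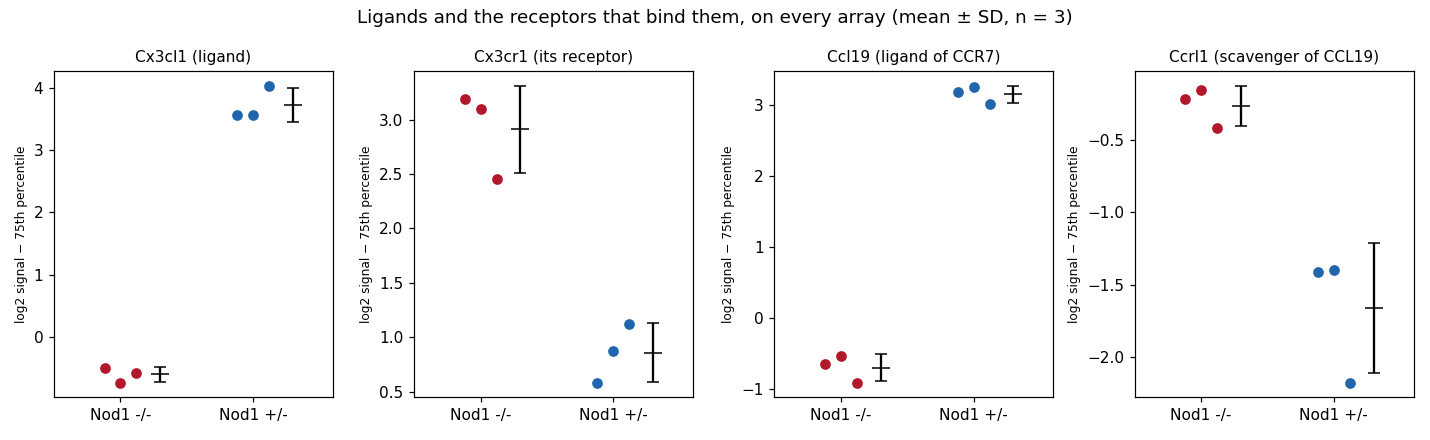
Log2 signal minus the 75th percentile (y axis) of Cx3cl1 and its receptor Cx3cr1, and of Ccl19 and the scavenger Ccrl1, on every array with mean ± SD (n = 3), Nod1 -/- left of Nod1 +/-. Cx3cl1 and Ccl19 are low in Nod1 -/- and Cx3cr1 and Ccrl1 are high, with no overlap in these panels. Ccr7, the receptor through which CCL19 guides cells, is not shown and overlapped between genotypes. Ccrl1 was named after its values had been seen. Its limma call was lost without the first replicates (adjusted p = 0.0836) and with a block for slide row (0.117).

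The other ligands and receptors of these pathways changed in both directions. Of 14 listed, 11 were tested, with 4 lower and 3 higher in Nod1 -/- and a median difference of -0.30. The share that passed was 63.6%, against 18.7% over all genes. Without the first replicate of both genotypes 2 were lower and 1 higher, and likewise with a block for slide row. These settings cost calls in the whole table too: of 21478 genes 4012 passed in the main setting, 641 without the first replicates and 1033 with the block. Cx3cr1, the receptor of CX3CL1 on monocytes and macrophages, stood at 3.19, 3.09 and 2.46 in Nod1 -/- aortas and at 0.59, 0.87 and 1.13 in Nod1 +/- aortas. It was 4.15-fold higher in Nod1 -/- (log2 difference 2.05, standard error 0.24; limma adjusted p = 0.00446), opposite in direction to its ligand. Macrophage markers summed to 72.2 to 134.9 in Nod1 -/- and 72.9 to 87.2 in Nod1 +/-, with 1 of 9 higher (0 without the first replicates or with a block for slide row), and their part was not tested.

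Ccl19, the CCR7 ligand, stood at -0.64, -0.53 and -0.90 in Nod1 -/- aortas and at 3.19, 3.26 and 3.02 in Nod1 +/- aortas. It was 14.4-fold lower in Nod1 -/- (limma adjusted p = 0.000243), while Ccr7 itself overlapped between genotypes. Of 3 lymphatic markers tested, from a vessel type that makes CCR7 ligands, Pdpn fell by 1.54 (adjusted p = 0.00105), Lyve1 was higher by 1.03 (0.0203), and Prox1 had a difference of 0.07 (0.734). The Lyve1 call was lost without the first replicates (0.135) and with a block for slide row (0.138). The 4 lymphatic markers with a usable spot on every array, led by Pdpn, summed to 12.7 to 16.5 in Nod1 -/- and 28.7 to 30.2 in Nod1 +/-. Of these, Reln was above background on no array. The part of lymphatic cells was not tested. Ccrl1, which removes CCL19 and CCL21, was higher in Nod1 -/- by 1.40 (adjusted p = 0.0127), a call lost without the first replicates (0.0836) and with a block for slide row (0.117). Cxcr3, a receptor of inflammatory CXC chemokines, was higher by 2.37 (adjusted p = 0.0103) and by 1.11 with normexp, with only 1 of 3 Nod1 +/- arrays above background. The Cxcr3 call was lost without the first replicates (0.0874) and with a block for slide row (0.0505). Ccrl1, Cxcr3 and Cd74 were named after their values had been seen. Darc, which binds many inflammatory chemokines on venular endothelium and red cells, was 6.90-fold lower in Nod1 -/- (adjusted p = 0.006). Ccrl2, which binds chemerin and presents it without signalling, fell by 0.89 (adjusted p = 0.00767), a call lost without the first replicates (0.102) and with a block for slide row (0.0596). Cd74, the surface receptor of the cytokine MIF, fell by 0.79 (adjusted p = 0.0269), again lost without the first replicates (0.0857) and with a block for slide row (0.12). Cxcr5, the CXCL13 receptor, singled out for that role and not by the naming rule, had a difference of -0.51 (adjusted p = 0.313).

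Proteases and inhibitors that release or trim these chemokines were read through 22 genes, of which 4 were lower and 3 higher in Nod1 -/-, with a median difference of 0.08. Thus 31.8% passed, against 18.7% over all genes. Without the first replicate of both genotypes 4 were lower and 0 higher, and likewise with a block for slide row. ADAM10 and ADAM17 are the sheddases that cut CX3CL1 and CXCL16 from the cell surface, and they are named for that role after their values had been seen. Adam10 differed by 0.03 (95% confidence interval -0.20 to 0.26; adjusted p = 0.836) and Adam17 by 0.26 (-0.06 to 0.57; adjusted p = 0.207), neither past the threshold. Rhbdf2, an iRhom that brings ADAM17 to the surface, was 4.86-fold lower in Nod1 -/- (adjusted p = 0.000761). The related Rhbdf1, named after its values had been seen, had a difference of -0.15 (adjusted p = 0.643). Adam8 was 9.07-fold lower (adjusted p = 0.000243), and Timp1, a metalloproteinase inhibitor, 3.79-fold lower (adjusted p = 0.000732). Mmp9 was above background on no Nod1 -/- array and at least 7.0-fold lower there on the processed signals (adjusted p = 0.00185). That bound holds for this background correction only, since with normexp the log2 difference was -1.41. Dpp4, which trims CXCL12, was higher in Nod1 -/- by 1.21 (adjusted p = 0.0219; 0.76 with normexp) and was named after its values had been seen. The Dpp4 call was lost without the first replicates (0.165) and with a block for slide row (0.123). Of 11 markers of neutrophils, a cell type that also makes MMP9 and ADAM8, 7 were lower in Nod1 -/- (6 without the first replicates or with a block for slide row), with a median difference of -2.97. Retnlg was 14.1-fold and S100a9 9.03-fold lower, while Csf3r had a difference of 0.44 (adjusted p = 0.217). All 11 summed to 165.4 to 220.2 in Nod1 -/- and 321.6 to 366.5 in Nod1 +/-, and most of the Nod1 -/- sums came from Csf3r. The part of neutrophils was not tested.

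Genes that carry chemokine receptor signals included 25 tested, with 8 lower and 2 higher in Nod1 -/- and a median of -0.19. Thus 40% passed, against 18.7% over all genes. Rgs16, which ends G protein signals, was 7.39-fold lower (limma adjusted p = 0.00111), and Pik3r5, the regulatory subunit of PI3K-gamma, was 6.42-fold lower (0.00163; a log2 difference of -2.68, and -1.69 with normexp). Rgs4, of the same family as Rgs16, was higher by 0.77 (adjusted p = 0.00511), a call lost without the first replicates (0.0756). Grk5, a kinase that silences active receptors, fell by 1.21 (adjusted p = 0.0106), a call lost without the first replicates (0.0518) and with a block for slide row (0.0721). Without both first replicates, 2 genes of this list were lower and 0 higher, and with a block for slide row 4 and 1.

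Heparan sulfate holds CXCL12 and other chemokines on vessel walls. Of 24 tested genes that build, carry, edit or cut it, 5 were lower and 1 was higher in Nod1 -/-, with a median of -0.25. Thus 25% passed, against 18.7% over all genes. Sdc4, a syndecan that carries heparan sulfate, was 3.92-fold lower in Nod1 -/- (limma adjusted p = 0.00199). The sulfotransferase Hs6st1 fell by 0.92 (adjusted p = 0.00553) and Ndst1, which starts sulfation, by 0.51 (0.0267), while the epimerase Glce was higher by 0.64 (0.0203). Without the first replicate of both genotypes 1 gene of the list was lower and 0 higher, and likewise with a block for slide row. The calls of Ndst1 and Glce were each lost in 10 of 21 alternatives. Hs6st1 lost its call without the first replicates (0.0652) and with a block for slide row (0.0596).

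Non-canonical NF-kB, through RELB and the NFKB2 product p52, is known to drive Cxcl12, Cxcl13 and Ccl19 in lymphoid stroma. Of 17 tested genes 14 were lower and 0 higher in Nod1 -/-, with a median of -0.94. Thus 82.4% passed, against 18.7% over all genes. Relb was 8.10-fold lower (limma adjusted p = 0.000382) and Nfkb2 6.52-fold lower (0.000329). Birc3, a ubiquitin ligase of the pathway, was 5.52-fold lower (0.000842), and Tnfsf13b, the B-cell survival factor BAFF, 5.28-fold lower (0.00105; a log2 difference of -2.40, and -1.59 with normexp). Relb stood at 0.76, 0.70 and 0.64 in Nod1 -/- aortas and at 3.50, 3.71 and 3.94 in Nod1 +/- aortas, far apart on every array, and with the mean of its probes it fell by 1.86 (adjusted p = 0.000908). Of the chemokines named here, Ccl19 was 14.4-fold lower in Nod1 -/-. Cxcl13 was higher, a call lost without the first replicates (limma adjusted p = 0.134) and with a block for slide row (0.115). Cxcl12 missed the threshold on its downstream probe and passed as higher on its upstream probe. The part of this pathway in any of them was not tested. Without both first replicates 9 of the list were lower and 0 higher, and likewise with a block for slide row.

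**Figure D5:**
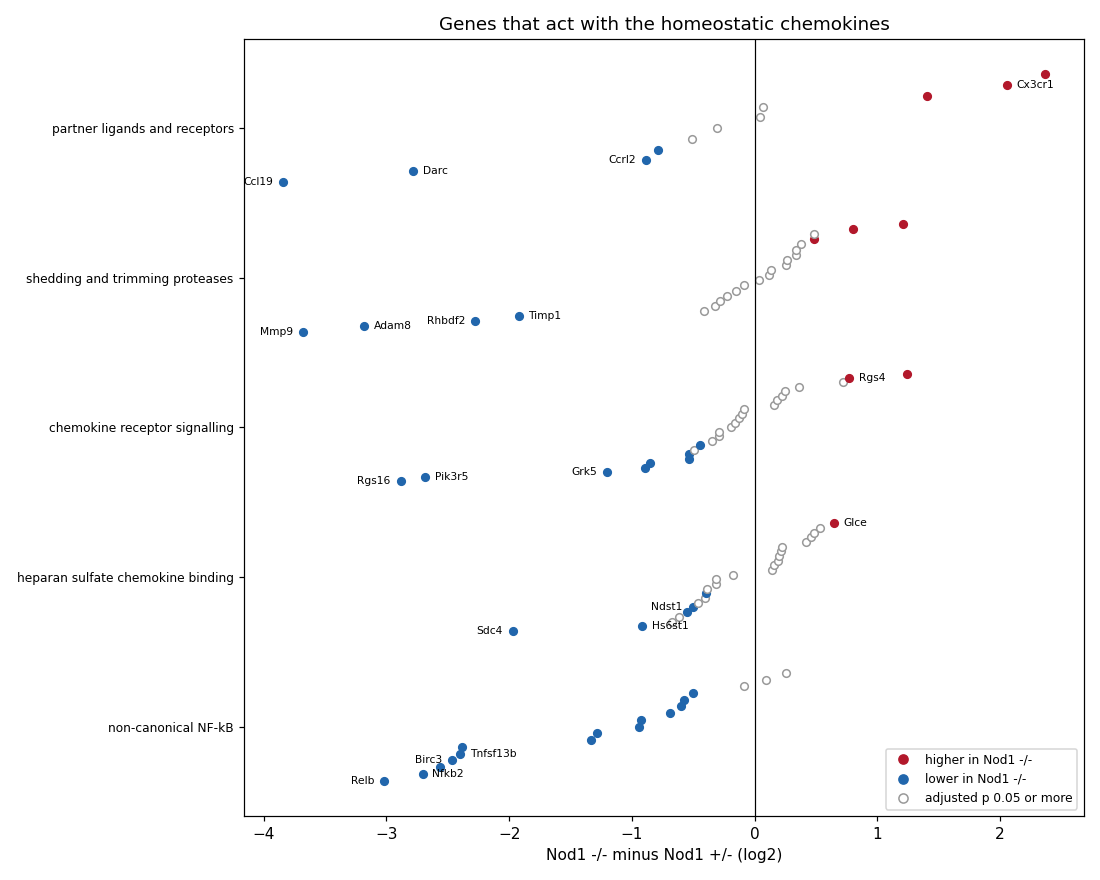
Difference of every tested gene (x axis, Nod1 -/- minus Nod1 +/-, log2) in 5 lists of genes that act with the chemokines, 1 point per gene, filled where the adjusted p was under 0.05 and blue for lower or red for higher in Nod1 -/-. In the non-canonical NF-kB list 14 of 17 genes passed as lower and 0 as higher, while each other list has genes that passed on both sides. The point of Mmp9 is a fitted value of a gene not above background in Nod1 -/-.

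For each member, the genes with the most similar pattern were those with the smallest root mean square difference after each gene was centred on its mean over the 6 arrays. Cx3cl1 was nearest to Nod2 (0.271) and Tnfaip2 (0.288), and Cxcl16 to Itga2 (0.0614) and Fpr1 (0.0953). Cxcl14 was nearest to D730005E14Rik (0.387) and the neutrophil gene Ltf (0.416). Cxcl13 was nearest to Calcrl (0.0354) and 3110007F17Rik (0.0444), and Cxcl12 to Irs1 (0.0447) and Cdc14a (0.0495). Among receptors, Cxcr6 was nearest to Rabl2 (0.014) and Slc26a11 (0.0307), Cxcr7 to Znrd1 (0.0326) and Haus3 (0.0392), Cxcr4 to Pcdh10 (0.104) and Dpysl4 (0.105), and Ccr7 to A430107O13Rik (0.115) and 5031420N21Rik (0.125). The distance grows with a gene's own variation, so it is not compared between members.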

How the data were processed

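RNA from 6 fetal aortic samples had been labelled with Cy3 and hybridised to 1-colour Agilent arrays. In the deposited scanner files, a spot's intensity is linear, with background already subtracted. Per the file headers the program was Agilent Feature Extraction, release 10.7.1.1, while the submitters' processing notes name 9.5.1.1. Probe positions are those of mm9, per the file headers, which also show 1 slide and 1 scan time. The authors' deposited table of intensity values, with identical sorted columns on all arrays, was used only as an alternative, and 0 of its 6 columns lacked a sample.

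From these files, control spots and spots marked as outliers were left out, and 0 spots were saturated. Signals were taken to log2, spots of a probe averaged, and the array's 75th percentile subtracted. A probe counted as above background on an array when most of its usable spots did (ties included), and was kept when above background on at least 3 of 6 arrays, leaving 30166 probes. Of a gene's kept probes, the one brightest on average stood for the gene. The comparison used lmFit and eBayes of limma (version 3.58.1, R 4.3.3), and plots were drawn with matplotlib 3.10.9. The fit was tested on simulated data. Precision is limited by the number of arrays.

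The members and gene lists were chosen with earlier results of these data known. Named genes are all members, up to 4 called genes with the smallest p from each of 5 lists, and the 2 genes nearest each member. A gene above background on no array of a genotype has only a bound, taken between the brighter genotype's mean and the dimmer one's, after raising each dim value to at least the lowest above-background signal of its array. Array names that RefSeq does not pair were kept. Alternatives covered background, scaling, probe filters and summaries, weights, blocks, a 2-fold minimum and each array left out. The cell-type marker lists were summed as signal over the 75th percentile.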

Additional observations from a re-analysis of the deposited data

How the results depend on the processing

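No result reversed under the alternatives run. Members lower in Nod1 -/- numbered 3 in the main setting and in every alternative but a pair: 2 with probes above background on all 6 arrays, which leaves Cxcl14 out, and 2 with a 2-fold minimum, which tests a larger difference (Cxcl14 adjusted p = 0.0734). Members higher in Nod1 -/- numbered 1, but 0 with median scaling, the slide row as a block, a 2-fold minimum, or without the first replicate of both genotypes, 2 with array weights, and 3 with every probe tested or with a gene's probes averaged. With 1 array left out, they numbered 0 to 2. Genes changed numbered 4012 (1646 lower and 2366 higher), 2506 with median scaling (1580 lower and 926 higher), and 1636 with no filter on dim probes (802 lower and 834 higher). They numbered 1033 with slide row as a block (606 lower and 427 higher) and 2281 with Xist signal as a covariate (1027 lower and 1254 higher). They numbered 193 with a 2-fold minimum (163 lower and 30 higher) and 641 without the first replicate of both genotypes (409 lower and 232 higher). With 1 array left out they numbered 1459 to 3387, fewest without Nod1 -/- replicate 2. The balance of directions thus depended on the setting. Higher genes outnumbered lower ones in the main setting, but not in several of these, nor without Nod1 -/- replicate 1 or 2. Median scaling moved the median difference of all genes to -0.01, against 0.10, about the size of its effect on each member. The 2-fold minimum also ended the calls of Cx3cr1 (adjusted p = 0.153), Darc (0.098) and Sdc4 (0.0663). Normexp brought the log2 differences nearer 0 for the dim genes Ccrl2 (-0.55), Mmp9 (-1.41) and Tnfsf13b (-1.59), which kept their calls. Apart from what these settings change by construction, the cause was not tested.

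With the replicate number as a block 4040 genes changed, and 3 members were lower and 1 higher. Deviations of same-numbered arrays correlated by 0.08, 0.28 and 0.11, and Nod1 -/- replicate 1 correlated best with Nod1 +/- replicate 3 (0.13), so the numbers were not taken to pair the samples. Low signal over background limits the dim probes: normexp brought the differences of Cxcl14, Cxcr4, Cxcr6 and Ccr7 nearer 0 by over 1.5 times.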
